A study of Mus musculus with 13 samples.

Results

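A set of 10 genes that regulate epithelial transcription and splicing was followed: Grhl1, Grhl2 and Grhl3, Ovol1 and Ovol2, Esrp1 and Esrp2, Elf3, Trp63 and Dlx3. They were taken by symbol from a count table of 24394 genes. All 10 were in the table, and all 10 were among the 17004 genes that passed the filter on low counts. The question was which of these genes are gained by mouse embryonic fibroblasts (MEF) once Foxn1, the master regulator of thymic epithelial cell (TEC) development, is switched on, and which stay off in comparison with TEC of the fetal thymus.

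The MEF carried the iFoxn1/+ genotype, a copy of Foxn1 that is induced by Cre, and induction was by nucleofection of the Cre plasmid pPGK-Cre-bpA. The 13 libraries form 6 groups. These were untreated E13.5 MEF (n = 2) and cells induced for 2 days (day 2 iTEC, n = 2) or 10 days (day 10 iTEC, n = 3). The others were cells induced for 12 days and sorted as Epcam+ (n = 2) or Epcam- (n = 2), and untreated E15.5 fetal TEC (n = 2). The genotype label of each group reads N/A and the same iFoxn1/+ protocol stands under all of them, so the genotype of fetal TEC, the promoter of the induced copy and any pooling of embryos remain unstated in the sources used here. The labels do not tell whether replicates are separate cultures or animals, and p-values therefore measure the spread between these libraries, which may be technical.

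Levels are given in CPM, computed with effective library sizes (total count times TMM factor). Libraries held 35805780 to 86465460 counts, so 3 counts in 1 library equal 0.03 to 0.0776 CPM. Changes are log2 fold changes ± standard error (SE) from edgeR's quasi-likelihood test, and a gene is called at an adjusted p under 0.05, adjusted by Benjamini-Hochberg over all 17004 genes. A gene with no count in 1 group has a lower bound on its fold, computed from 3 counts over that group. Against MEF these bounds fall 2.45-fold without MEF replicate 1 and 1.69-fold without MEF replicate 2, through the floor alone. Bounds and counting intervals cover counting error only. In bulk RNA, fewer expressing cells and less RNA per cell cannot be told apart.

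Foxn1 itself measured 18.3 and 13 CPM in MEF, 382 and 299 CPM at day 2, 440, 431 and 422 CPM at day 10, 326 and 292 CPM in Epcam+ cells, 468 and 391 CPM in Epcam- cells, and 362 CPM in both fetal TEC libraries. Some libraries differ in ways other than their group. Epcam+ replicate 2 and both fetal TEC libraries were short of long transcripts: the rank correlation of gene count with transcript length was -0.036 to 0.019 in these 3 libraries and 0.306 to 0.35 in the others. MEF and Epcam- libraries held 795 to 2280 CPM of Xist and at most 0.0164 CPM of Y-linked genes. At day 2, at day 10 and in Epcam+ cells Xist was 0 to 1.34 CPM and the Y-linked sum 46.3 to 326 CPM. Fetal TEC held 6.05 and 8.21 CPM of Xist and 40.8 and 32.8 CPM of Y-linked genes. Comparisons of MEF or Epcam- cells with the other groups thus also differ in sex-linked genes. Epcam+ and Epcam- libraries cannot be taken as fractions of the same cells, nor MEF as the source of day 2 and day 10 cells. Fetal TEC held thymocyte markers (9 of 9 in the table, summed 482 to 1340 CPM) and macrophage markers (384 to 401 CPM, with Itgax at 0), whereas day 10 iTEC held 1.95 to 2.43 and 1.87 to 2.6 CPM of these lists. Macrophage markers summed to 2550 to 2970 CPM in MEF. The part of these differences in the results below was not tested. The 6 epithelial markers (Epcam, Krt8, Krt18, Cdh1, Krt7 and Krt19) summed to 3.12 to 3.42 CPM in MEF, with Epcam at 0, and 16200 to 21200 CPM in fetal TEC.

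Grainyhead-like factors (Grhl1 to Grhl3) bind the promoters and enhancers of junction and barrier genes and keep them active. Ovol1 and Ovol2 are zinc finger repressors that hold down mesenchymal genes such as Zeb1, and Esrp1 and Esrp2 are RNA-binding proteins that direct the epithelial pattern of alternative splicing. Elf3 is an ETS factor of simple and differentiating epithelia, Trp63 encodes p63, which sustains basal cells of stratified epithelia and the proliferative capacity of thymic epithelium, and Dlx3 is a homeobox factor of placenta, hair follicle and epidermis.

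On mm10 (GENCODE M21), Grhl1 lies at chr12:24572283-24617391, Grhl2 at chr15:37233036-37363569, Grhl3 at chr4:135541888-135573630, Ovol1 at chr19:5549136-5560646, Ovol2 at chr2:144305175-144332146, Esrp1 at chr4:11331933-11386783, Esrp2 at chr8:106130319-106136974, Elf3 at chr1:135253575-135258568, Trp63 at chr16:25683763-25892102 and Dlx3 at chr11:95120119-95125296. Exons of Ovol1, Ovol2 and Elf3 share 19.8%, 17% and 7.31% of their bases with genes of the other strand (Gm31166, 1700108N11Rik and Gm26642). Esrp2 shares 5.05% with Nfatc3. Whether counting used strand is not given, so parts of these counts may belong to the partner. The share of bases does not bound the share of counts. Nfatc3 measured 130 to 226 CPM in 10 libraries and 25.3 to 49.2 CPM in the 3 libraries short of long transcripts, where Esrp2 was at its highest.

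RefSeq promoter windows (GRCm38.p6, 250 bases before to 50 bases after the start) were at hand for 4 of the 10 genes, 5 windows in all with 2 for Grhl1. A window of each of these 4 genes is shown, for Grhl1 the one at the first of its 2 starts. At day 10 Grhl1 was far above fetal TEC, Grhl3 near it, and Ovol2 and Elf3 far below. The Ovol2 window lies wholly inside the span given above for the gene, so it is not at the 5′ end of that span. Each reads 5′ to 3′ on the gene's strand, and capitals mark ACGC, the core motif of FOXN1, on either strand (GCGT on the other).
Grhl1, chr12:24572037-24572336, plus strand: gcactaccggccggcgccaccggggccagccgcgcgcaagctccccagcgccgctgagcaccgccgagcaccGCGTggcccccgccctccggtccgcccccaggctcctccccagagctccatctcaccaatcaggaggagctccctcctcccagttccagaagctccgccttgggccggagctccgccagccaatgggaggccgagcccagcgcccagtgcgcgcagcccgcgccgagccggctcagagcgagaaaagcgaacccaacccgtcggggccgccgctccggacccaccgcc
Grhl3, chr4:135573583-135573882, minus strand: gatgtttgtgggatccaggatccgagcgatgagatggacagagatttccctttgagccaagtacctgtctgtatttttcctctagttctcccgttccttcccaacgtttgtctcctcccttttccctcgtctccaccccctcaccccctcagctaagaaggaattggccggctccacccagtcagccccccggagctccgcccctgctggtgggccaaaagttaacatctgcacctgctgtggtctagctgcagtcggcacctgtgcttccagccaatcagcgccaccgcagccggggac
Ovol2, chr2:144331313-144331612, minus strand: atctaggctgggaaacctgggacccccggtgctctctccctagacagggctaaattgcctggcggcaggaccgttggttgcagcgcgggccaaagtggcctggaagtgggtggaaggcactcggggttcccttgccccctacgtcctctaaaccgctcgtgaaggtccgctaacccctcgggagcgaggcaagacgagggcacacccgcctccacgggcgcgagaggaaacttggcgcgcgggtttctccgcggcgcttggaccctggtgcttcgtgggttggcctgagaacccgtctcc
Elf3, chr1:135258423-135258722, minus strand: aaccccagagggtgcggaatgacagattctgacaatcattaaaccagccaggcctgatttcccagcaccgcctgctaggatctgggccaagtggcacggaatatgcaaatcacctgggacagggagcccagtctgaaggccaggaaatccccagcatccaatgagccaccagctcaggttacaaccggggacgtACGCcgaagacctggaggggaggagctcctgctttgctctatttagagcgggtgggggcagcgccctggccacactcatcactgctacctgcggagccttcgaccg
The letters ACGC occurred once in this Grhl1 window and once in the Elf3 window, and 55.3% of 32851 promoter windows of the same length hold them. The longer form GACGC, found in 27.2% of windows, and the Grhl motif AACCNGTT, found in 2.09%, were in none of the 5 windows. CACCTG, the E-box of Zeb and Snail repressors (20.2% of windows), occurred 2 times in the Grhl3 window, once in the Elf3 window and not in those of Grhl1 and Ovol2. The share of G and C was 75.3% for Grhl1, 58.3% for Grhl3, 65.7% for Ovol2 and 59% for Elf3, against a median of 52.7%. The other Grhl1 window, at chr12:24580469-24580768, held neither ACGC nor CACCTG and had 51.3% G and C. ACGC was thus in 1 of the 2 windows of Grhl1 and in that of Elf3, and absent from those of Grhl3 and Ovol2.

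Grhl1 was gained early and strongly. Its level was 0.124 and 0.0802 CPM in MEF, 1.29 and 0.909 CPM at day 2, and 90.5, 86.7 and 86.9 CPM at day 10. Each time point stood clear of the one before. At day 2 Grhl1 was 10.7-fold above MEF (log2 3.37 ± 0.45, edgeR adjusted p = 0.00247), and at day 10 it was 861-fold above MEF (log2 9.7 ± 0.55, adjusted p = 2.4e-05). At day 12 it measured 59.2 and 92.4 CPM in Epcam+ cells and 47.8 and 43.2 CPM in Epcam- cells, against 11.2 and 21.4 CPM in fetal TEC. Every iTEC library of day 10 and day 12 was above both fetal TEC libraries.

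Grhl2, the family member best known for holding simple epithelia together, stayed near the limit of detection. It had no count in MEF or at day 2, and 0.248, 0.333 and 0.207 CPM at day 10, or 37 counts over the 3 libraries. That was at least 10.7-fold above MEF (edgeR adjusted p = 0.0425). The call was lost, with adjusted p up to 0.176, when any 1 library of MEF, day 2, day 10 or fetal TEC was left out, and with library size alone as the scale. At day 12 Grhl2 measured 0.173 and 0 CPM in Epcam+ cells and 0.172 and 0.03 CPM in Epcam- cells, neither called against MEF (adjusted p = 0.0854 and 0.122). Without Epcam+ replicate 2 the adjusted p in Epcam+ cells was 0.0302, without Epcam+ replicate 1 no count was left there, and in Epcam- cells it was up to 0.0329 without either Epcam+ library. Fetal TEC had 40.4 and 44.1 CPM, above every iTEC library.

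Grhl3, a factor of the epidermal barrier, had no count in MEF and 0 and 0.039 CPM at day 2. At day 10 it measured 5.17, 5.23 and 5.71 CPM, at least 219-fold above MEF (edgeR adjusted p = 0.00603, or 0.0501 without MEF replicate 2). Against day 2, which had 3 counts, the ratio was 235 (95% counting interval 80.1 to 1140). Epcam+ cells had 5.35 and 14.4 CPM and Epcam- cells 2.77 and 1.89 CPM, against 17.1 and 1.32 CPM in fetal TEC. The 2 fetal TEC libraries thus lay on either side of all 7 iTEC libraries of day 10 and day 12.

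**Figure D1:**
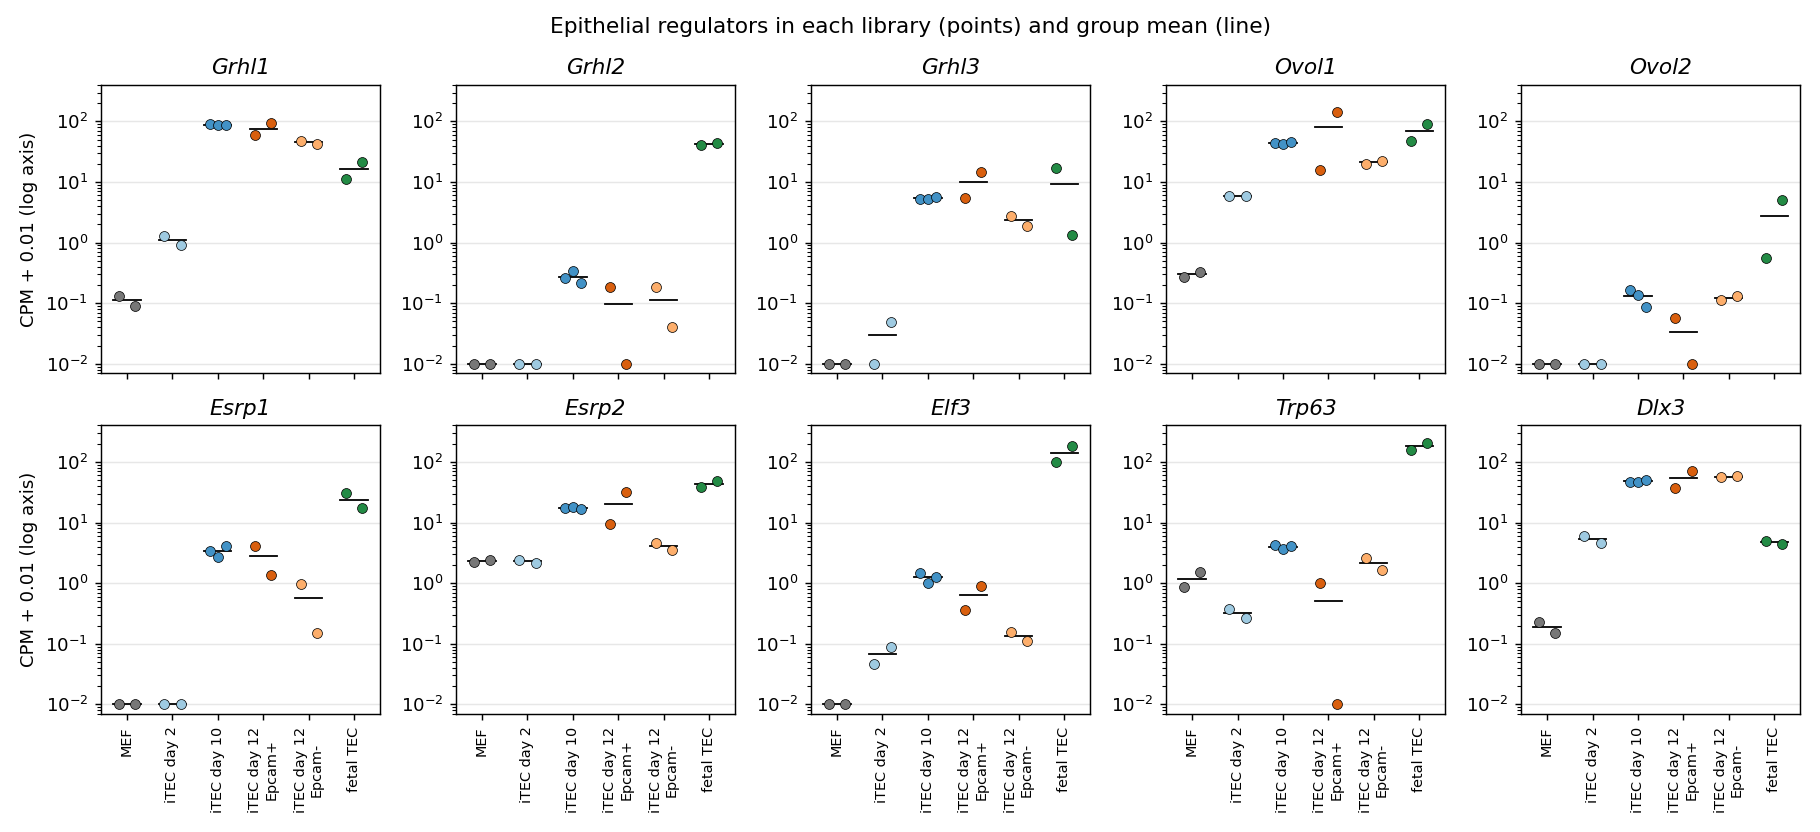
Levels of the 10 regulators in each of the 13 libraries, in CPM plus 0.01 on a log axis, by group, with points for libraries and lines for group means. Grhl1 and Dlx3 in iTEC of day 10 and day 12 lie above fetal TEC, whereas Grhl2, Elf3 and Trp63 in iTEC lie far below it, and points at the bottom edge are libraries with no count.

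Within the family the balance differed between iTEC and fetal TEC. Divided by the length of the longest transcript, Grhl1 made up 92.3 to 93.2% of Grhl counts at day 10, 83.8 to 89.7% in Epcam+ cells and 93 to 94.8% in Epcam- cells, against 18.4 to 39.6% in fetal TEC. Grhl2 made up 0.154 to 0.25% at day 10, against 46.6 to 57.3% in fetal TEC, where it was the most abundant member in both libraries. Grhl3 made up 6.62 to 7.55% at day 10, and 35% and 3.04% in the 2 fetal TEC libraries. With the median transcript length in its place, fetal TEC held 15.9 CPM per kilobase of Grhl2, 5.12 of Grhl1 and 3.31 of Grhl3, the same order. Fetal TEC counts barely followed transcript length. Without division by length they were 42.3 CPM for Grhl2, 16.3 for Grhl1 and 9.22 for Grhl3.

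**Figure D2:**
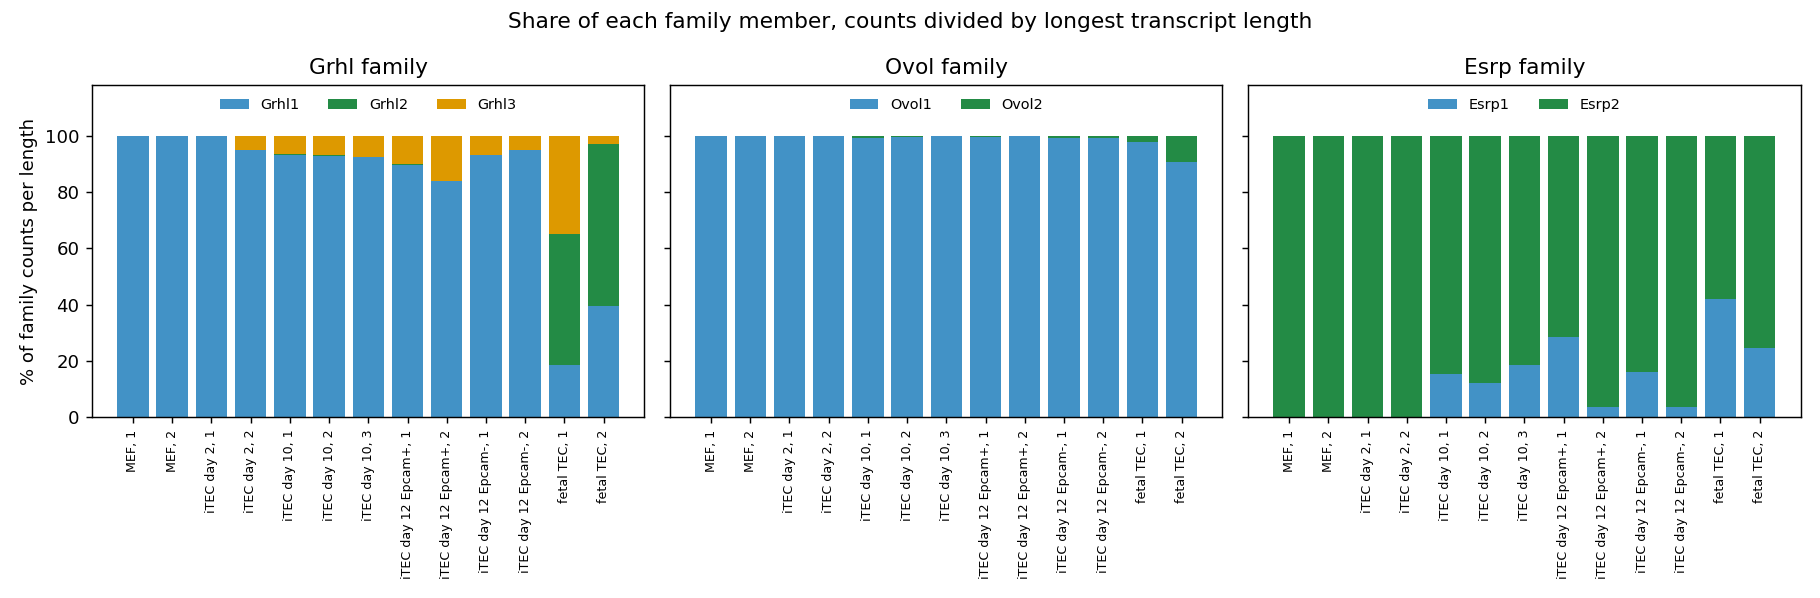
Share of each member within the Grhl, Ovol and Esrp families (percent of the family's counts per length of the longest transcript) in each library, with bars stacked to 100%. Grhl1 fills 92.3 to 93.2% of the Grhl bar at day 10 and 18.4 to 39.6% in fetal TEC, where Grhl2 takes 46.6 to 57.3%.

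Of the Ovol repressors, Ovol1 was gained and Ovol2 was barely detected. Ovol1 measured 0.263 and 0.321 CPM in MEF, 5.91 and 5.92 CPM at day 2 and 43.7, 42.3 and 44.9 CPM at day 10. It was 20.3-fold above MEF at day 2 (log2 4.34 ± 0.87, edgeR adjusted p = 0.0196) and 150-fold at day 10 (log2 7.22 ± 0.97, adjusted p = 0.00115). The day 2 call was lost, with adjusted p up to 0.153, when either MEF or either day 2 library was left out, although the libraries of MEF, day 2 and day 10 did not overlap. Epcam+ cells had 15.9 and 145 CPM and Epcam- cells 19.9 and 22.3 CPM, against 47 and 91.8 CPM in fetal TEC. Epcam+ replicate 2 alone lay above fetal TEC.

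Ovol2, which in the mouse is needed for neural tube closure and for keeping epithelial identity, had no count in MEF or at day 2. At day 10 it measured 0.155, 0.128 and 0.0776 CPM, 18 counts in all, at least 4.9-fold above MEF, with an edgeR adjusted p of 0.0832. It passed the threshold without Epcam+ replicate 1, Epcam+ replicate 2 or fetal TEC replicate 1 (adjusted p up to 0.0486) and with DESeq2. Epcam+ cells had 0.046 and 0 CPM and Epcam- cells 0.101 and 0.12 CPM, against 0.551 and 5.01 CPM in fetal TEC. The 2 fetal TEC libraries were far apart, and both were above all iTEC libraries. Per length, Ovol2 made up 0.331 to 0.676% of Ovol counts at day 10, against 2.21 to 9.49% in fetal TEC.

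Both splicing factors were gained by day 10, and neither was called at day 2. Esrp1 had no count in MEF or at day 2, and measured 3.42, 2.66 and 4.09 CPM at day 10, at least 138-fold above MEF (edgeR adjusted p = 0.00495). Epcam+ cells had 4.16 and 1.34 CPM and Epcam- cells 0.963 and 0.14 CPM, against 30.2 and 17.2 CPM in fetal TEC. Its level in every iTEC library was below both fetal TEC libraries. Esrp1 was called against MEF in both sorted groups (adjusted p = 0.0068 in Epcam+ and 0.0211 in Epcam- cells). The call in Epcam+ cells was lost without MEF replicate 2 (0.0538), and that in Epcam- cells without MEF replicate 1, MEF replicate 2 or Epcam- replicate 1 (up to 0.106).

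Esrp2 had counts already in MEF, where Nfatc3, whose exons overlap it, measured 149 and 226 CPM. The part of Nfatc3 in the Esrp2 counts was not tested. Esrp2 measured 2.25 and 2.43 CPM in MEF, 2.38 and 2.18 CPM at day 2 and 17.4, 17.9 and 16.5 CPM at day 10. Day 2 overlapped MEF (log2 -0.04 ± 0.49, adjusted p = 1), and day 10 was 7.38-fold above MEF (log2 2.88 ± 0.5, edgeR adjusted p = 0.00456). Epcam+ cells had 9.58 and 31.5 CPM and Epcam- cells 4.61 and 3.52 CPM, against 38.1 and 48.5 CPM in fetal TEC. In the Epcam- pair Esrp2 lay between MEF and day 10, and it was not called against MEF there (adjusted p = 0.354, and up to 0.0218 without Epcam+ replicate 1 or 2). Per length, Esrp2 was the more abundant of the pair in every library, with 81.5 to 88% of Esrp counts at day 10 and 58 to 75.5% in fetal TEC. Its transcripts vary in length, so its level per kilobase at day 10 is 4.88 by the longest and 27.4 by the median transcript, and the second value raises its share further.

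Elf3 was gained at day 10 but stayed far below fetal TEC. It had no count in MEF, 0.0363 and 0.0779 CPM at day 2, and 1.47, 0.999 and 1.24 CPM at day 10. The rise at day 10 was at least 50.4-fold over MEF (edgeR adjusted p = 0.000587), and that at day 2 was not called (adjusted p = 0.0647, up to 0.0405 without Epcam+ replicate 1 or 2). Epcam+ cells had 0.357 and 0.899 CPM and Epcam- cells 0.144 and 0.1 CPM, against 99.4 and 186 CPM in fetal TEC. No 2 neighbouring groups overlapped in the order MEF, day 2, Epcam-, Epcam+, day 10 and fetal TEC.

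Trp63 was not called above MEF in any iTEC group. It measured 0.843 and 1.52 CPM in MEF, 0.363 and 0.26 CPM at day 2 and 4.27, 3.64 and 4.06 CPM at day 10. Both day 2 libraries were below both MEF libraries (log2 -1.92 ± 1.06, edgeR adjusted p = 0.418), and all day 10 libraries were above them (log2 1.76 ± 0.96, adjusted p = 0.268). Without Epcam+ replicate 1 or 2, whose own Trp63 values are far apart, both differences passed the threshold, with adjusted p up to 0.00661 at day 2 and up to 0.00254 at day 10. Epcam+ cells had 0.989 and 0 CPM and Epcam- cells 2.59 and 1.64 CPM, against 159 and 206 CPM in fetal TEC. The gene-level counts do not part the TAp63 and ΔNp63 forms.

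Dlx3 rose early and was high at day 12 as well. It measured 0.221 and 0.14 CPM in MEF, 6.04 and 4.52 CPM at day 2 and 47.1, 47.1 and 51 CPM at day 10. It was 29.2-fold above MEF at day 2 (log2 4.83 ± 0.43, edgeR adjusted p = 0.000293) and 268-fold at day 10 (log2 8.03 ± 0.49, adjusted p = 2.4e-05). Epcam+ cells had 36.8 and 70.9 CPM and Epcam- cells 55.4 and 58.9 CPM, against 4.92 and 4.44 CPM in fetal TEC. Day 2 iTEC already overlapped fetal TEC, and every later iTEC library was above both.

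Counted over the 10 genes, the gain widened with time. At day 2, 3 were called higher than MEF (Grhl1, Ovol1 and Dlx3) and none lower, where 2.87% of all tested genes were called higher and 2.65% lower. At day 10, 8 were called higher and none lower, where 9.42% of all tested genes were higher and 6.58% lower, and the 2 not called were Ovol2 and Trp63. Without both Epcam+ libraries, all 10 were called at day 10, where 6797 of 16928 tested genes were called in either direction. At day 2, 5 were then called, with Elf3 higher and Trp63 lower added, where 3861 of 16928 tested genes were called. With genes at 0 in MEF set at their bound, the median log2 change of the 10 was 6.38 at day 10 (7.62 with fitted values), against 0 over all tested genes. Fetal TEC differed from MEF in all 10, each higher, where 31.5% of all tested genes were called higher and 26.3% lower. This count was 10 in each fit that left out 1 library.

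From day 2 to day 10 the same number, 8, was called higher at the later time and none lower (8.24% of all tested genes were higher and 4.41% lower). Grhl1 was 80.1-fold higher at day 10 than at day 2 (log2 6.32 ± 0.46, edgeR adjusted p = 9.01e-05), Dlx3 9.16-fold (log2 3.2 ± 0.37, adjusted p = 0.00065) and Ovol1 7.38-fold (log2 2.88 ± 0.76, adjusted p = 0.0352). Esrp2 was 7.57-fold higher (log2 2.92 ± 0.5, adjusted p = 0.00481) and Elf3 21.7-fold (log2 4.35 ± 0.63, adjusted p = 0.00293). Grhl2, Grhl3 and Esrp1 were the others called, and Ovol2 and Trp63 were not (adjusted p = 0.0922 and 0.0536). The count fell to 4 without day 2 replicate 1 and to 3 without day 2 replicate 2. Grhl2 and Ovol1 lost their calls in 11 and 9 of the 13 fits without 1 library (adjusted p up to 0.241 and 0.239), and Elf3 moved to log2 5.02 without day 2 replicate 2. Without both Epcam+ libraries all 10 were called, where 5933 of 16928 tested genes were called in either direction.

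**Figure D3:**
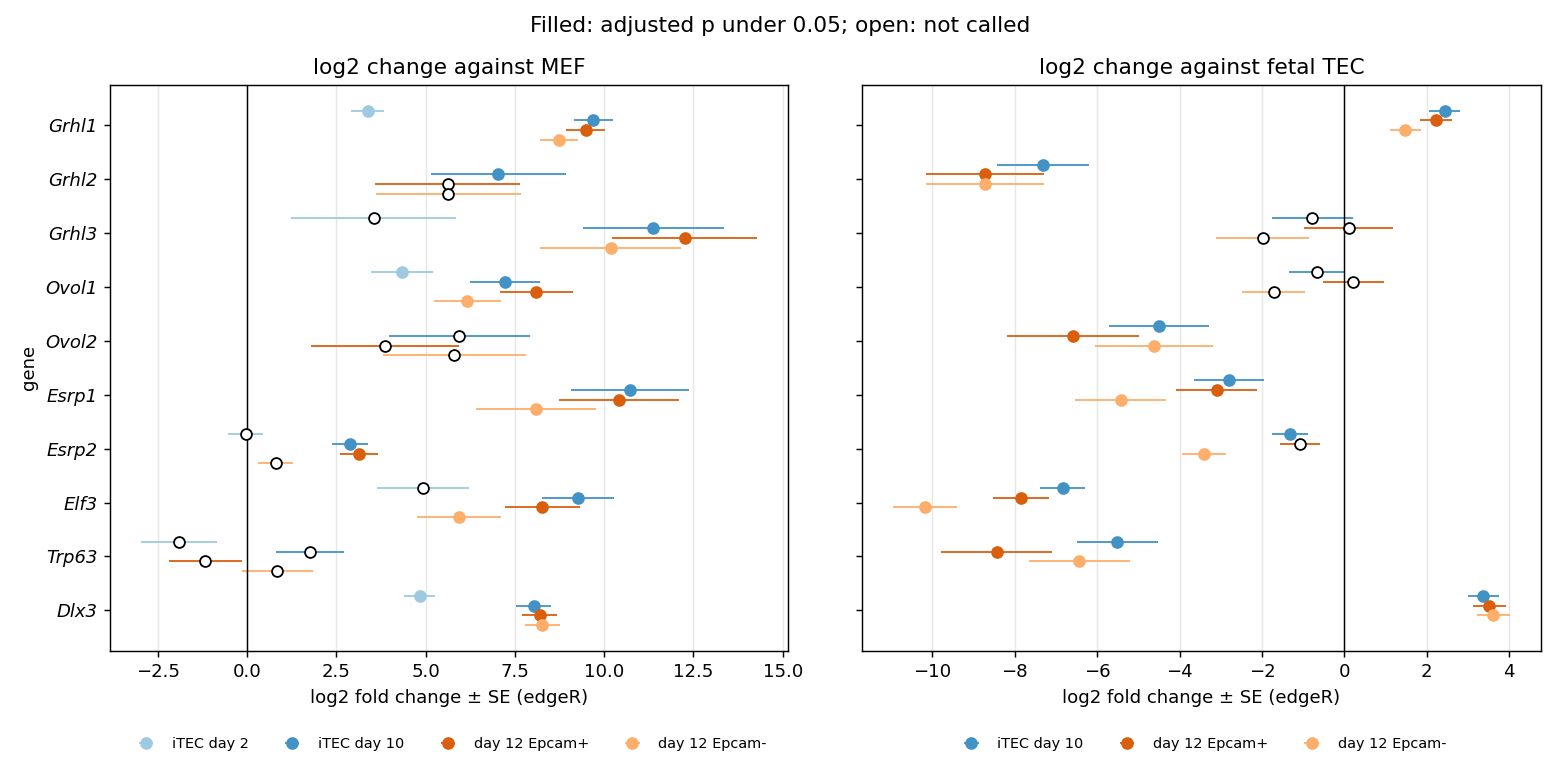
Log2 fold change ± SE (edgeR) of each regulator in iTEC against MEF (left) and against fetal TEC (right), with filled points called at an adjusted p under 0.05 and open points not called. Grhl1 and Dlx3 are called higher in both panels, and Grhl2, Ovol2, Elf3 and Trp63 lie left of 0 against fetal TEC in each iTEC group. Values against MEF for Grhl2, Grhl3, Ovol2, Esrp1 and Elf3 rest on no MEF count and depend on the prior count of the fit.

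At day 12 the groups sorted by Epcam differed from MEF in an overlapping set of members. Epcam+ cells had 7 members called higher than MEF (Grhl1, Grhl3, Ovol1, Esrp1, Esrp2, Elf3 and Dlx3), where 15.9% of all tested genes were higher and 4.40% lower. Epcam- cells had 6 called higher, the same without Esrp2, where 7.37% of all tested genes were higher and 4.53% lower. None was called lower in either group. Without MEF replicate 2 the counts fell to 4 in Epcam+ and 3 in Epcam- cells, and without MEF replicate 1 the count in Epcam- cells was also 3. The Epcam- count was 4 without Epcam- replicate 1. In Epcam+ cells against MEF, Ovol1 was at log2 8.1 ± 1.02 (8.96 and 5.77 without Epcam+ replicates 1 and 2) and Esrp2 at 3.13 ± 0.53 (3.75 and 2.03). Trp63 was called lower in Epcam+ cells than in MEF without Epcam+ replicate 1 (adjusted p = 0.000201). A fit of only the Epcam+ and MEF libraries called 0 of the 10 and 0 of all genes.

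Between the 2 sorted groups no member was called by edgeR, where 0.259% of all tested genes were called. The unadjusted p was under 0.05 for Ovol1, Esrp1, Esrp2 and Elf3. The share of all tested genes under that threshold was not counted, so this is not set against a background. DESeq2 called 2, Esrp2 and Elf3, where it called 1794 of 14820 tested genes in either direction. Esrp2 was 5.04-fold higher in Epcam+ than in Epcam- cells (log2 2.33 ± 0.51, adjusted p = 0.114), Elf3 5.15-fold (log2 2.33 ± 0.59, adjusted p = 0.164) and Esrp1 4.99-fold (log2 2.33 ± 0.97, adjusted p = 0.248). For these 3 genes and for Grhl1 and Grhl3 the Epcam+ libraries were above both Epcam- libraries. Ovol2 and Trp63 lay below without overlap. How many of all tested genes part in this way between 2 and 2 libraries was not counted. Ovol2 had 0.046 and 0 CPM in Epcam+ cells against 0.101 and 0.12 CPM in Epcam- cells (log2 -1.95 ± 1.41, adjusted p = 0.476). Trp63 had 0.989 and 0 CPM in Epcam+ cells against 2.59 and 1.64 CPM in Epcam- cells (log2 -2.01 ± 1.04, adjusted p = 0.315).

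These values rest on an Epcam+ pair whose libraries were far apart. Ovol1 was 3.81-fold higher in Epcam+ than in Epcam- cells by the means, but log2 -0.41 without Epcam+ replicate 2. Over all alternatives Esrp2 in the sort ranged from log2 1.2 to 3.37. Fibroblast markers (8 of 8 in the table) summed to 32100 CPM in Epcam+ replicate 1, 2000 CPM in Epcam+ replicate 2 and 12000 to 12700 CPM in Epcam- cells. The 6 epithelial markers summed to 2870 CPM in Epcam+ replicate 1, 17800 CPM in Epcam+ replicate 2 and 1650 to 1760 CPM in Epcam- cells. Sex-linked genes part the sorted groups as well. The part of these differences in the sort was not tested. Dlx3 averaged 53.9 ± 24.1 CPM in Epcam+ and 57.1 ± 2.5 CPM in Epcam- cells (SD, n = 2 each), with a log2 difference of -0.09 ± 0.36, which passed through 0 without Epcam+ replicate 1 (0.31).

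Against fetal TEC the 10 genes fell into 3 sets. At day 10, 2 were called higher (Grhl1 and Dlx3), 6 lower (Grhl2, Ovol2, Esrp1, Esrp2, Elf3 and Trp63), and 2 were not called (Grhl3 and Ovol1). Of all tested genes 27.6% were called higher and 31.7% lower, so a call is common in this comparison. The median log2 change of the 10 was -2.06, against -0.1 over all tested genes. Epcam- cells gave the same 2 higher and 6 lower, where 25.2% and 27.7% of all genes were called. Epcam+ cells gave the same 2 higher and 5 lower, Esrp2 not being called there, where 19.2% and 16.4% of all genes were called. These comparisons share the fetal TEC libraries.

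Grhl1 at day 10 was 5.4-fold above fetal TEC (log2 2.43 ± 0.38, edgeR adjusted p = 0.000851). It was 4.65-fold above in Epcam+ cells (log2 2.22 ± 0.39, adjusted p = 0.003) and 2.79-fold in Epcam- cells (log2 1.48 ± 0.38, adjusted p = 0.0112). The last call was lost without Epcam- replicate 1 or fetal TEC replicate 1 (adjusted p up to 0.0588) and with an offset that takes out each library's dependence of counts on transcript length (log2 0.93, adjusted p = 0.222). Dlx3 exceeded fetal TEC by 10.3-fold at day 10 (log2 3.37 ± 0.38, adjusted p = 0.000164), 11.5-fold in Epcam+ cells (log2 3.52 ± 0.39, adjusted p = 0.000318) and 12.2-fold in Epcam- cells (log2 3.61 ± 0.4, adjusted p = 0.000217). No fit that left out 1 library ended a call of Dlx3 here. In a fit of only the Epcam+ and fetal TEC libraries, Grhl1 and Dlx3 were not called (edgeR adjusted p = 0.172 and 0.108). That fit called 219 of 15601 tested genes.

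Grhl2, Elf3 and Trp63 were the members lowest in relation to fetal TEC. Day 10 iTEC reached 0.49 to 0.788% of the fetal TEC mean for Grhl2, 0.7 to 1.03% for Elf3 and 1.99 to 2.34% for Trp63. The log2 changes at day 10 were -7.32 ± 1.12 for Grhl2 (edgeR adjusted p = 0.00155), -6.84 ± 0.55 for Elf3 (adjusted p = 5.99e-05) and -5.51 ± 0.99 for Trp63 (adjusted p = 0.00181). With the offset for transcript length they were -8.79, -6.19 and -7.25. In Epcam+ cells the log2 changes were -8.73 ± 1.43 for Grhl2, -7.85 ± 0.69 for Elf3 and -8.44 ± 1.35 for Trp63, and in Epcam- cells -8.72 ± 1.43, -10.18 ± 0.77 and -6.43 ± 1.23 in the same order. Leaving out single libraries ended no call of these 3 genes, but moved Grhl2 and Trp63 in Epcam+ cells to -7.91 and -7.51 without Epcam+ replicate 2. No fold could be given for these 2 without Epcam+ replicate 1, since replicate 2 has no count. Elf3 in Epcam+ cells moved to -8.62 without Epcam+ replicate 2. Grhl2 in Epcam- cells moved between -10.35 and -7.91 without replicate 1 or 2.

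Ovol2 and both Esrp genes were lower than in fetal TEC by less. Day 10 iTEC reached 2.79 to 5.57% of the fetal TEC mean for Ovol2, 11.2 to 17.3% for Esrp1 and 38.1 to 41.3% for Esrp2. Log2 changes at day 10 were -4.5 ± 1.21 for Ovol2 (edgeR adjusted p = 0.0149), -2.8 ± 0.84 for Esrp1 (adjusted p = 0.0223) and -1.33 ± 0.44 for Esrp2 (adjusted p = 0.0253). With the length offset Ovol2 was at -3.61. Each of these calls was lost in some fits without 1 library. For Ovol2 these were the fits without day 10 replicate 2 or 3 or fetal TEC replicate 2 (adjusted p up to 0.151, and log2 -2.16 to -5.33 without fetal TEC replicate 2 or 1). For Esrp1 they were those without any day 10 library or fetal TEC replicate 1 (up to 0.0983), and for Esrp2 those without any day 10 library or fetal TEC replicate 2 (up to 0.109).

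In Epcam- cells Ovol2, Esrp1 and Esrp2 were lower than in fetal TEC by log2 -4.63 ± 1.43, -5.43 ± 1.11 and -3.41 ± 0.53 (edgeR adjusted p = 0.0284, 0.00651 and 0.00124). The Ovol2 call was lost without either Epcam- library or fetal TEC replicate 2 (up to 0.168), and its log2 change ranged from -5.46 to -2.29 without fetal TEC replicates 1 and 2. Esrp1 moved between -7.36 and -4.61 without Epcam- replicate 1 or 2. In Epcam+ cells Ovol2 and Esrp1 were lower by -6.58 ± 1.6 and -3.1 ± 0.99 (adjusted p = 0.0177 and 0.0432), and Esrp2 was not called (-1.08 ± 0.49, adjusted p = 0.11, and 0.000283 without Epcam+ replicate 2). Ovol2 in Epcam+ cells was no longer called without fetal TEC replicate 2 (0.0665, log2 -4.22), and was at -7.39 without fetal TEC replicate 1 and -5.84 without Epcam+ replicate 2. No Ovol2 count was left in Epcam+ cells without Epcam+ replicate 1, so no fold could be given. Esrp1 in Epcam+ cells lost its call in the fits without MEF replicate 2, any day 2, day 10 or fetal TEC library or Epcam+ replicate 2 (up to 0.13), and moved between -4.14 and -2.49 without Epcam+ replicates 1 and 2.

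Grhl3 and Ovol1 were the members not called against fetal TEC at day 10. Day 10 iTEC held 56.1 to 62% of the fetal TEC mean for Grhl3 (log2 -0.78 ± 0.98, edgeR adjusted p = 0.509) and 61 to 64.7% for Ovol1 (log2 -0.67 ± 0.67, adjusted p = 0.401). Grhl3 turned to log2 2.03 at day 10 without fetal TEC replicate 1, the library with 17.1 CPM. Ovol1 at day 10 lay below both fetal TEC libraries, and passed the threshold without Epcam+ replicate 1 or 2 (adjusted p up to 0.0407). In Epcam- cells Ovol1 was at log2 -1.72 ± 0.76 (adjusted p = 0.0796, and up to 0.000733 without Epcam+ replicate 1 or 2) and Grhl3 at -1.98 ± 1.13 (adjusted p = 0.162, and 0.0397 without fetal TEC replicate 2). In Epcam+ cells Ovol1 was at 0.21 ± 0.74 and Grhl3 at 0.1 ± 1.09 (adjusted p = 0.844 and 0.957). Without Epcam+ replicate 2, Ovol1 was lower than in fetal TEC (log2 -2.11, adjusted p = 0.00149), and without Epcam+ replicate 1 it was higher (adjusted p = 0.0238).

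The ranking of the genes within a sample type also differed. Per kilobase of the longest transcript, the highest members at day 10 were Grhl1 at 25.4 ± 0.619 CPM, Dlx3 at 18.6 ± 0.863 CPM and Ovol1 at 14.7 ± 0.439 CPM (SD, n = 3). In fetal TEC they were Elf3 at 68 ± 29.1 CPM, Trp63 at 34 ± 6.11 CPM and Ovol1 at 23.3 ± 10.7 CPM (SD, n = 2). By median transcript length Esrp2 joins the highest in both, at 27.4 CPM per kilobase at day 10 and 68.7 CPM per kilobase in fetal TEC. By CPM not divided by length, fetal TEC was led by Trp63 at 182, Elf3 at 142 and Ovol1 at 69.4. The order of Elf3 and Trp63 thus depends on the division, and fetal TEC counts barely followed transcript length (rank correlation 0.005 and -0.036). Counts summed over the 10 genes were scaled neither by length nor by the TMM factor. They gave 225 to 232 CPM at day 10, 439 and 484 CPM in fetal TEC and 3.78 and 4.14 CPM in MEF. The TMM factors were 1.077 to 1.089 at day 10, 0.98 and 0.7746 in fetal TEC and 1.022 and 0.9204 in MEF.

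Over the 13 libraries, the correlation of log2 CPM between members varied widely. Grhl1 correlated with Dlx3 (Pearson's r 0.94), Grhl3 (0.92) and Ovol1 (0.9), and Grhl2 with Ovol2 (0.93), Elf3 (0.93) and Trp63 (0.9). The lowest values were -0.12 for Trp63 with Dlx3 and 0.13 for Grhl1 with Trp63 and Grhl2 with Dlx3, whereas other pairs across these sets were closer, up to 0.75 for Ovol1 with Elf3. The libraries share their groups, depth and, for 3 of them, the shortage of long transcripts, so these values are a description. Among all genes with at least 5 CPM in their highest group, the genes most like Grhl1 were Ankrd35, Krt85 and Ccser1 (r 0.988, 0.987 and 0.987), those most like Dlx3 Gm14137, Pacsin1 and Slc9a2 (0.988, 0.981 and 0.981), and those most like Ovol1 Ccl25, Sowahb and Krt8 (0.987, 0.986 and 0.986). Grhl3 was nearest to Golga7b, 4732456N10Rik and Tgm5 (0.984, 0.98 and 0.979).

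For the members high in fetal TEC, the nearest genes were others. Grhl2 was nearest to Krt76, Tmprss11d and Vgll2 (r 0.99, 0.989 and 0.986), and Ovol2 to Ctxn3, Vgll2 and 1700019D03Rik (0.974, 0.964 and 0.961). Esrp1 was nearest to Cdh1, Celsr1 and Serpinb11 (0.982, 0.981 and 0.98), and Esrp2 to Klk1b11, Tmem30b and St14 (0.988, 0.976 and 0.975). Elf3 was nearest to Pdyn, Kcnh6 and Cd8a (0.974, 0.973 and 0.969), and Trp63 to Matk, Tnfrsf4 and Tnip1 (0.972, 0.955 and 0.954). Cd8a is a thymocyte gene and 1 of the 9 thymocyte markers that were high in fetal TEC, so a gene of other cells in those libraries also follows this pattern.

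Genes known as targets of grainyhead-like factors were gained in part. Of 12 tested, 7 were called higher at day 10 than in MEF and none lower. Of all tested genes, 9.42% were called higher and 6.58% lower. The median log2 change of the list was 7.09 with genes at 0 in MEF at their bound (9.23 fitted), against 0 over all tested genes. Cdh1, which encodes E-cadherin, measured 44.4 CPM at day 10 against 0.25 CPM in MEF (log2 7.49 ± 0.47, edgeR adjusted p = 2.68e-05). Epcam was at least 212-fold and Rab25, a GTPase of apical trafficking, at least 242-fold above MEF (adjusted p = 0.00129 and 0.00246). Cldn4, a claudin of tight junctions, had 3 counts in MEF and a ratio of 1770 (95% counting interval from 606). Cdh1 was at log2 8.3 without MEF replicate 2.

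Against fetal TEC, 1 of these 12 was higher at day 10 (Arhgef19) and 7 were lower, with a median log2 change of -2.25, where 27.6% and 31.7% of all tested genes were called. Cdh1 was lower by log2 -2.79 ± 0.33 (edgeR adjusted p = 0.000205), Epcam by -6.41 ± 0.76 (adjusted p = 0.000345) and Sema3b, a semaphorin, by -2.29 ± 0.39 (adjusted p = 0.00142). Cldn3, another claudin, measured 0.179 CPM at day 10 against 111 CPM in fetal TEC (log2 -9.29 ± 1.09, adjusted p = 0.000215). With the length offset Cdh1 was at -3.87, Epcam at -5.72 and Cldn3 at -8.21. Cldn4 and Rab25 stood at 43.7 and 5.93 CPM at day 10, against 172 and 28 CPM in fetal TEC. The list thus held genes within a few fold of fetal TEC beside genes that stayed near 0.

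Of 15 genes known as targets of p63, 9 were called higher at day 10 than in MEF and none lower (median log2 5.29), although Trp63 itself was not called. The shares over all tested genes were 9.42% higher and 6.58% lower. Itgb4, the integrin of hemidesmosomes, rose to 161 CPM at day 10, against 1.84 CPM in MEF (log2 6.44 ± 0.42, edgeR adjusted p = 3e-05). Jag2, a Notch ligand, rose by log2 8.67 ± 0.57 (9.44 without MEF replicate 1), Sfn (14-3-3 sigma) by 5.53 ± 0.47 and Perp, a desmosome protein, by 5.29 ± 0.51 (adjusted p = 3.21e-05, 0.000108 and 0.000188). Against fetal TEC, 3 of the 15 were higher at day 10 and 5 lower (median log2 -0.74), near the 27.6% and 31.7% of all tested genes. With the length offset 1 was higher and 10 were lower, where 8907 of 17004 tested genes were called in either direction. Without both Epcam+ libraries 4 were higher and 8 lower, where 12744 of 16928 tested genes were called. The basal keratins Krt5 and Krt14 were among the lower ones, at 5.07 and 3.67 CPM at day 10 against 363 and 287 CPM in fetal TEC (log2 -6.16 ± 0.61 and -6.29 ± 1.15, adjusted p = 0.000248 and 0.0025). Ripk4, a kinase of epidermal differentiation, was lower by -4.56 ± 0.59 and Sfn by -1.98 ± 0.36 (adjusted p = 0.000352 and 0.0018). With the length offset Krt5 was at -5.55, Krt14 at -5.38 and Sfn at -1.04.

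**Figure D4:**
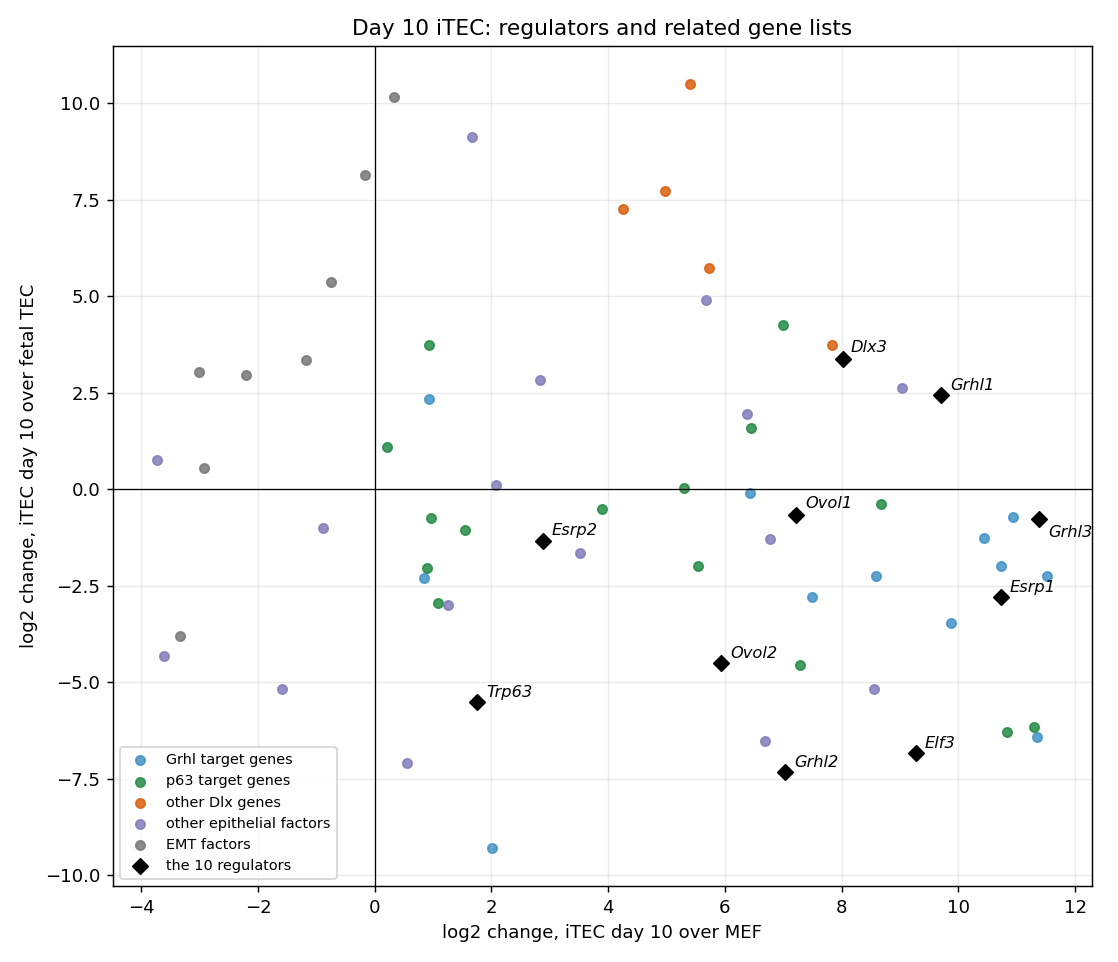
Log2 fold change at day 10 over MEF (horizontal) and over fetal TEC (vertical) for the 10 regulators and for genes of 5 related lists. The other Dlx genes lie in the upper right with Dlx3 and Grhl1, while Grhl2 and Elf3 lie at the lower right and Trp63 at the lower centre. Both axes use the same day 10 libraries, so the layout is not a relation between independent values, and genes with no MEF count rest on the prior count of the fit.

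Of the other Dlx genes, most were gained at day 10 like Dlx3. Of Dlx1, Dlx2, Dlx4, Dlx5 and Dlx6, 4 were called higher at day 10 than in MEF, and the same 4 higher than in fetal TEC (median log2 4.98 with bounds and 7.26). Among all tested genes, 9.42% and 27.6% were called higher in these comparisons. In fetal TEC against MEF, 3 of the 5 were called lower and 1 higher, and Dlx3 was higher. There 26.3% of all tested genes were lower and 31.5% higher. Dlx1 measured 15.2 CPM at day 10 against 0.359 CPM in MEF (log2 5.4 ± 0.66, edgeR adjusted p = 0.000649), and had 1 count in fetal TEC (ratio 1710, 95% counting interval 307 to 67700). Dlx4 rose by log2 7.84 ± 1.32 over MEF (adjusted p = 0.00393, and log2 7.03 without MEF replicate 2, while MEF replicate 2 alone has no count), Dlx5 by 4.98 ± 0.88 (0.00503) and Dlx2 by 4.25 ± 0.94 (0.0147). The Dlx5 and Dlx2 calls were lost without MEF replicate 1 or 2, with adjusted p up to 0.0637 and 0.142. Dlx6 was not called in either comparison (adjusted p = 0.262 and 0.139).

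Among 20 other epithelial transcription factors, 19 were tested. At day 10, 7 were called higher than in MEF and none lower (median log2 2.45 with bounds over the genes counted in either group, 1.67 fitted). Over all tested genes 9.42% were higher and 6.58% lower. Hopx, a homeobox cofactor, rose to 83.3 CPM against 1.63 CPM in MEF (log2 5.67 ± 0.45, edgeR adjusted p = 8.05e-05). Tfcp2l1, a grainyhead-related factor, rose by log2 6.38 ± 0.61 (7.17 without MEF replicate 1) and Zfp750, a factor of terminal epidermal differentiation, by 3.52 ± 0.59 (adjusted p = 0.000186 and 0.00362). Against fetal TEC, 4 were higher at day 10 and 10 lower (median log2 -1.64), where 27.6% and 31.7% of all tested genes were called. Hopx and Klf4 were higher (log2 4.9 ± 0.43 and 2.83 ± 0.48, adjusted p = 5.25e-05 and 0.00135). Gata3, needed for thymus formation, and Ehf, an ETS factor of the same subfamily as Elf3, were lower (log2 -2.99 ± 0.48 and -5.16 ± 0.81, adjusted p = 0.000983 and 0.00125). With the length offset Hopx was at 6.02 and Ehf at -6.3.

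Transcription factors of epithelial to mesenchymal transition were lower in part. Of 8 tested, 2 were called lower at day 10 than in MEF (Snai2 and Zeb1) and none higher (median log2 -1.69), and over the alternatives 1 to 6 were called lower and none higher. In the fit of all libraries 6.58% of all tested genes were lower and 9.42% higher. The alternatives moved the calls over all genes as well. In either direction these were 7959 of 15195 with only day 10 and MEF in the fit, and 2720 of 17004 in the fit of all libraries. Snai2 fell to 11.6 CPM at day 10, against 117 CPM in MEF (log2 -3.33 ± 0.4, edgeR adjusted p = 0.000632, and log2 -2.54 without MEF replicate 2). Zeb1, a repressor of E-cadherin that OVOL proteins are known to hold down, fell to 30.3 CPM, against 243 CPM in MEF (log2 -3.01 ± 0.81, adjusted p = 0.0324), a call that was lost in 9 of the 13 fits without 1 library (up to 0.172), those without a library of MEF, day 2, day 10 or Epcam- cells. Foxc2 and Twist2 were not called (log2 -2.93 ± 1.13 and -1.17 ± 0.47, adjusted p = 0.115 and 0.13). Foxc2 passed the threshold without any 1 Epcam+ or fetal TEC library (up to 0.0368) and Twist2 without either fetal TEC library (up to 0.0298). Against fetal TEC, 5 of the 8 were higher at day 10 (3 with the length offset, where 27.6% of all tested genes were higher in the fit without it) and 1, Snai2, was lower (log2 -3.81 ± 0.41, adjusted p = 0.000137). Twist1 measured 114 CPM at day 10 against 0.0991 CPM in fetal TEC (log2 10.16 ± 1.11, adjusted p = 0.000158), and Prrx1 609 CPM against 2.15 CPM (log2 8.14 ± 1.68, adjusted p = 0.0034). Twist2 was higher by log2 3.35 ± 0.56 (adjusted p = 0.00126). Over the fits without fetal TEC replicate 1 or 2, Twist2 ranged from 2.7 to 4.63 and Prrx1 from 7.21 to 12.05. With the length offset Snai2 was at -3.08, Twist1 at 11.11 and Prrx1 at 6.19.

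Gene-level counts hold no splicing, but the genes that Esrp proteins are known to splice were measured for their total level. None of 8 was called at day 10 against MEF by edgeR (median log2 -0.09), where 9.42% of all tested genes were higher and 6.58% lower. Of the 8, 1, Cd44, had an unadjusted p under 0.05 (log2 -2.23 ± 0.85, adjusted p = 0.112), where the share of all tested genes was not counted. DESeq2 called Cd44 lower, where it called 4365 of 17186 tested genes in either direction. Without both Epcam+ libraries, Cd44, Arhgef11 and Fgfr2 passed the threshold, where 6797 of 16928 tested genes were called in either direction. Against fetal TEC, 5 of the 8 were higher at day 10 and none lower (median log2 1.77), where 27.6% and 31.7% of all tested genes were called. With the length offset 2 were higher and 1 lower, where 8907 of 17004 tested genes were called in either direction. Arhgef11, Ctnnd1, which encodes p120 catenin, and Rac1 were higher by log2 3.6 ± 0.46, 4.32 ± 0.9 and 1.19 ± 0.27 (adjusted p = 0.000352, 0.00353 and 0.00495), with Ctnnd1 at 3.66 to 5.62 without fetal TEC replicate 1 or 2. With the offset for transcript length these became 1.23, 2.32 and 0.31, and Rac1 was no longer called (adjusted p = 0.6). Cd44 was higher by log2 2.72 ± 0.96 (adjusted p = 0.0332), a call lost with that offset and without MEF replicate 2, any day 10 library or fetal TEC replicate 2 (up to 0.178, and log2 2.09 to 3.9 without fetal TEC replicate 1 or 2).

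Of 11 other splicing factors tied to epithelial or mesenchymal splicing, 1 was called lower at day 10 than in MEF and none higher (median log2 -0.2). This comparison called 6.58% of all tested genes lower and 9.42% higher. Hnrnpm, which promotes the mesenchymal pattern of splicing, fell to 125 CPM, against 323 CPM in MEF (log2 -1.37 ± 0.26, edgeR adjusted p = 0.00633, or 0.0623 without MEF replicate 2). Mbnl2, Khdrbs1 and Ptbp2 had the next smallest p and were not called (adjusted p = 0.133, 0.237 and 0.369). Each passed the threshold without both Epcam+ libraries, where 6797 of 16928 tested genes were called in either direction. Against fetal TEC, 4 were higher at day 10 (Rbfox2, Mbnl1, Mbnl2 and Srsf1) where 27.6% of all tested genes were higher, and Hnrnpm was lower (log2 -1.85 ± 0.26, adjusted p = 5e-04). Mbnl1 was higher by log2 3.42 ± 0.57, Rbfox2 by 2.49 ± 0.67 and Mbnl2 by 1.29 ± 0.35 (adjusted p = 0.00126, 0.0112 and 0.0106). The Rbfox2 call was lost without fetal TEC replicate 2 (0.076) and that of Mbnl2 without fetal TEC replicate 1 (0.0597). With the offset for transcript length Mbnl1 was at 1.61, Rbfox2 at 0.18 and no longer called, and Mbnl2 at -0.53, and Hnrnpm moved to -2.51. With that offset 1 of the 11 was higher and 4 were lower, where 8907 of 17004 tested genes were called in either direction.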

How the data were processed

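RNA of 13 libraries was analysed. The authors deposited unscaled read counts for each gene symbol. The mm10 build and the tools HISAT2, StringTie, DESeq2, FastQC, Trimmomatic and SAMtools are named, per the submitters’ processing notes, without versions or settings; the handling of shared reads and of strand is not stated there. Columns headed as lacking Cre were read as the MEF control.

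The counts were tested with edgeR 4.0.16 in R 4.3.3: TMM scaling (factors 0.705 to 1.16), filterByExpr by group with a minimum count of 10, and a robust quasi-likelihood model with a coefficient for each of the 6 groups, fitted to all 13 libraries (common dispersion 0.296). Each of 10 comparisons was an F test with Benjamini-Hochberg adjustment over all 17004 genes tested; SE is the absolute log2 change divided by the square root of F. The spread is estimated jointly, so the Epcam+ pair, which is far apart, enters p-values of comparisons that do not involve it. The steps were tested on simulated counts. Replicates were compared by chi-square, and none agreed within sampling noise (median 1.81 to 729 times its expectation). Gene positions and lengths are from GENCODE M21, for 95.7% of symbols. Alternatives were DESeq2 1.42.0 and its size factors, library size alone, no filter, a minimum count of 50, fewer groups or libraries, a length offset, a block for replicate number, and leaving out single libraries.

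The members and lists were chosen with earlier results of these data known. All 10 members are named, with up to 4 genes of each list with the smallest p (1 is not reported here), and up to 3 most alike genes per member; Arhgef19, Srsf1, Dlx6, Cldn4 and Rab25 against fetal TEC were named after their values were seen.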

Additional observations from a re-analysis of the deposited data

How the results depend on the processing

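Counts of members called changed most with which libraries entered the fit. Without both Epcam+ libraries, or without the 3 libraries short of long transcripts, 5 in place of 3 were called at day 2 against MEF (Elf3 higher and Trp63 lower were added). With only the groups compared, 0 in place of 7 were called in Epcam+ cells against MEF and 1 in place of 7 against fetal TEC, where 0 and 219 genes of all tested were called. Over all genes, the calls against MEF grew without the 3 short libraries to 6438 at day 2 (938 in the fit of all libraries) and 9231 at day 10 (2720). List counts moved too: at day 10 against MEF, over all alternatives, 5 to 11 grainyhead targets, 7 to 13 p63 targets and 5 to 11 other epithelial factors were higher, and 1 to 6 mesenchymal factors were lower. In the sort, DESeq2 called 2, where it called 1794 of 14820 tested genes in either direction. The fit without the 3 short libraries leaves 1 Epcam+ library there. Over the fits without 1 library, the counts ranged from 2 to 5 at day 2, 6 to 10 at day 10, 3 to 8 in Epcam- and 4 to 8 in Epcam+ cells against MEF, 3 to 10 from day 2 to day 10, 0 to 5 in the sort, and 5 to 9, 6 to 9 and 5 to 8 at day 10 and in Epcam- and Epcam+ cells against fetal TEC. The counts of all genes called moved in these fits as well, so these ranges cannot be set against the shares of the fit of all libraries. Without both Epcam+ libraries, 9 were called at day 10 against fetal TEC, where 12744 of 16928 tested genes were called. The high end in the sort came from the fit without Epcam+ replicate 1, which leaves 1 library in that group. With the replicate block, 5 in place of 8 were called from day 2 to day 10. Replicate numbers are not said to pair cultures, and same-numbered libraries did not deviate together (r -0.183 to 0.097), so this block has no meaning in the design.

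Some directions turned. Esrp2 at day 2 against MEF was 0.09 with library size alone, 0.03 without the 3 short libraries, and -0.1 to 0.02 without single libraries. In the sort, Grhl2 was 0.79 without the 3 short libraries, 0.49 with the length offset, -5.55 to 1.62 without single libraries (0.85 without Epcam+ replicate 2); Ovol1 was -0.45 without the 3 short libraries and -0.41 to 2.78 without single libraries; Dlx3 was 0.42 with the length offset and -0.63 to 0.31 without single libraries. Against fetal TEC, Grhl3 over the fits without 1 library was -1.66 to 2.03 at day 10, -2.86 to 0.83 in Epcam- cells and -0.79 to 2.91 in Epcam+ cells (-0.77 without Epcam+ replicate 2, -0.17 with library size alone). Ovol1 in Epcam+ cells was -2.11 to 1.08 without single libraries (-0.18 without fetal TEC replicate 1). Rac1 against MEF was -0.6 to 0.11 without single libraries, and Mbnl2 against fetal TEC -0.53 with the length offset; alternatives for list genes were added after seeing the data. The cause was not tested. Of 3402 log2 values of single genes under alternatives, 3133 kept direction and side of the threshold, 134 lost and 114 gained a call, and 21 turned. The fit without the 3 short libraries gives no fetal TEC value, and that without both Epcam+ libraries no Epcam+ value. Levels under 0.0776 CPM lie within 3 counts of 0 in the shallowest library.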
